A study of Mus musculus with 6 samples.

Results

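The retinal pigment epithelium (RPE) cells in single-cell suspensions of mouse retina were taken as barcodes with at least 3 of 7 RPE transcripts (Rpe65, Rgr, Ttr, Rdh5, Rrh, Best1 and Lrat) and no UMI of Slc1a3, Trpm1 or Arr3, which mark Müller glia, ON bipolar cells and cones. A UMI (unique molecular identifier) marks 1 captured RNA molecule. By this rule 145 of 38569 barcodes were RPE cells, after barcodes had been kept with 500 to 5000 detected genes and at most 20% of UMIs from the mitochondrial genome. The rule used the measured counts, so the levels of those 10 genes in these cells are given as a description, without a test. For Ttr alone, a test is given in cells chosen without it.

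The series compares oxygen-induced retinopathy (OIR), a mouse model of vessel loss followed by abnormal vessel growth, with controls kept in room air (Ctrl). OIR mice were placed in 75% oxygen from P7 to P12 (postnatal days) and then spent 5 days in normoxia, and all retinas were taken at P17. Each group has 3 samples, and each sample pools the retinas of 2 mice. The strain of these mice is not given in the sources used here, and the tissue dissected was the retina, not the RPE. The labels call the tissue retinal endothelial cells, whereas the suspensions hold all retinal cell classes, and the endothelial genes were nearly absent from the RPE cells (Kdr was the most abundant of the 9, at 0 to 18.7 counts per 1000000 UMIs, CPM).

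The RPE is a single layer of pigmented cells between the photoreceptors and the choroid. It rebuilds the chromophore of the visual pigments, takes up shed outer segments and degrades them in lysosomes, carries ions, water and metabolites between the choroid and the retina, and shields the eye from stray light with melanin. It lies outside the neural retina, so that the number of RPE cells in a retinal suspension depends on how cleanly the retina comes away from it.

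RPE cells were a rare part of every suspension. OIR replicates 1, 2 and 3 gave 12, 26 and 29 RPE cells, and Ctrl replicates 1, 2 and 3 gave 25, 44 and 9. As a share of kept cells these were 0.198%, 0.473% and 0.388% in OIR and 0.350%, 0.819% and 0.128% in Ctrl. The groups overlapped, with the highest and the lowest share both among the controls. The mean share was 0.353% ± 0.141 in OIR and 0.432% ± 0.353 in Ctrl (SD, n = 3 each), and an exact permutation test of the samples (two-sided) gave p = 0.9, where 3 against 3 samples cannot go below 0.1. Without Ctrl replicate 2, OIR had the higher mean by 0.114 percentage points.

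The rule left out 149 barcodes with 3 or more RPE markers for a UMI of Slc1a3, Trpm1 or Arr3. Those barcodes had medians of 5188 to 11016 UMIs per library, so depth is partly set by the rule. The RPE cells were shallower than the rest of their suspensions in every library. Their median was 1342, 2146 and 1807 UMIs in OIR and 1591, 1805 and 1191 UMIs in Ctrl, against 3962, 2357, 2010, 4864, 1949 and 1450 UMIs in the other kept cells of the same libraries. Summed over RPE cells, the libraries held 18042, 80644 and 65264 UMIs in OIR and 55561, 106752 and 12728 UMIs in Ctrl. OIR replicate 1 and Ctrl replicate 3 were therefore the least precise, and 1 UMI there was worth 55.4 and 78.6 CPM. The share of mitochondrial UMIs per RPE cell had a median of 12.01% in OIR replicate 1, 11.4% in Ctrl replicate 1 and 7.53% in Ctrl replicate 3, and of 3.22% to 3.83% in the other 3 libraries. High mitochondrial shares thus occurred in both groups. With a limit of 10% in place of 20%, 3 genes were called lower in OIR (Cox8b, Malat1 and Enpp2), where the limit of 20% gave none.

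**Figure D1:**
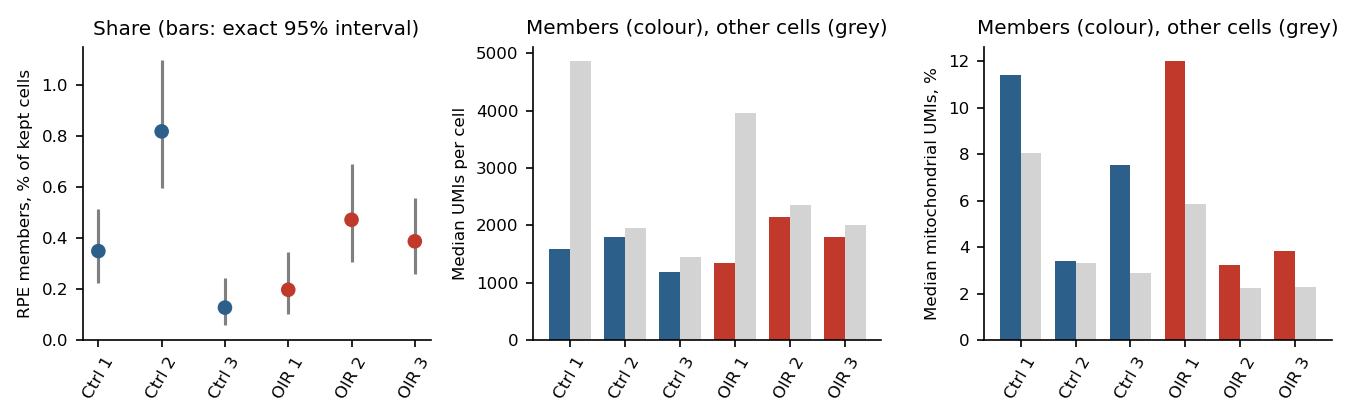
Share of RPE cells among kept cells (left; points with exact 95% Clopper-Pearson intervals, counting error only), median UMIs per cell (middle) and median mitochondrial share of UMIs (right) in each library, RPE cells in colour (blue, Ctrl; red, OIR) and other kept cells in grey. The shares of the groups overlap (0.128% to 0.819% in Ctrl), and both replicate 1 libraries have RPE cells with 11.4% or 12.01% mitochondrial UMIs.

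The label was checked against 25 RPE genes that the rule did not use. The RPE cells held a median of 12 of these genes (lowest 3, highest 21), and 138 of the 145 cells held 5 or more, while the other kept cells held a median of 1. Dct, a melanin enzyme, was seen in 93.1% of RPE cells against 0.428% to 1.52% of other kept cells per library. The lactate carrier Slc16a8 was seen in 91.7% against 0.385% to 6.14%, and the retinol receptor Stra6 in 78.6% against 0.257% to 1.36%. The share of free RNA in these values was not tested. Some genes went against the label, in part of the libraries or in all. Dapl1, 1 of the 25, was seen in 0% to 18.2% of RPE cells per library against 6.17% to 23.3% of other kept cells, and in 4 of 6 libraries in fewer RPE cells than other cells. Otx2, which photoreceptors and bipolar cells also express, was seen in 22.2% to 61.4% against 30.8% to 51.9%, and in fewer RPE cells in 3 libraries. Cldn19, a tight junction claudin, had no UMI in any RPE cell, and Best1, a chloride channel of the rule itself, had 0 UMIs in RPE cells and 33 in the other kept cells. 0 UMIs in the 338991 of the RPE cells is a limit of detection and allows up to 3 UMIs. Within a library 3 UMIs are worth 28.1 to 236 CPM, and Best1 was at 0.0683 to 0.396 CPM in the other kept cells. The 0 of Best1 thus does not show a lower level in RPE cells. No RPE cell therefore held all 7 markers; 50 held 6, 56 held 5, 28 held 4 and 11 held 3.

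At the edge of the rule, the 11 cells with 3 markers held per-library medians of 6 to 15 of the 25 genes outside the rule, and rod transcripts took 1.42% to 6.41% of their UMIs. The 55 cells with 2 markers and no excluded gene held medians of 2 to 4 of the 25 genes, and rod transcripts took 3.53% to 9.12%. The ranges of the rod share overlapped. No barcode of an RPE cell was also an RPE cell in a second library, and 2 recurred among kept cells of another library.

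Among the visual cycle genes, Ttr was by far the most abundant. Ttr encodes transthyretin, which carries thyroid hormone and, with a partner protein, vitamin A. It made up 58586, 89194 and 67035 CPM of the RPE cells' UMIs in OIR and 20608, 43456 and 35748 CPM in Ctrl. Every OIR library was above every Ctrl library. Because Ttr served to choose the cells, the cells were also chosen by the 6 other markers, an alternative added after the values were seen, which kept 134 cells, and Ttr was 60160, 90373 and 67319 CPM in OIR against 21488, 44297 and 40157 CPM in Ctrl. For those cells the log2 fold change was 1.02 (SE 0.55) with an adjusted p of 0.943 in edgeR's quasi-likelihood test over all genes. For the 108 cells chosen with neither Ttr nor Rgr it was 0.99 (SE 0.41, adjusted p = 0.798 in the same edgeR test). The difference passed neither test. Within a library Ttr varied widely from cell to cell: in Ctrl replicate 2 single RPE cells ranged from 514 to 96494 CPM with a median of 31133 CPM. In the other kept cells of the same libraries Ttr was 31.96 to 331 CPM.

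The enzymes and opsins of the cycle overlapped between the groups. Rpe65, the isomerase that makes 11-cis retinol, was at 1663, 3956 and 2681 CPM in OIR and 1692, 3044 and 2750 CPM in Ctrl. Rgr, a retinal-binding opsin, was at 4822, 4985 and 4949 CPM against 3888, 5471 and 3378 CPM. Rdh5, a retinol dehydrogenase, ranged from 1746 to 4142 CPM over the 6 libraries, and Lrat, which esterifies retinol, from 1008 to 2070 CPM. Rrh (peropsin) was the lowest detected rule marker at 174 to 562 CPM, and its ratio to the other kept cells was 5.44 (median over libraries), against 1133 for Rpe65. Rrh was about as abundant in Müller-marker cells (a ratio of 1.01), which are barcodes with at least 3 of 6 Müller glia genes.

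Of the 7 cycle genes outside the rule, 4 had enough counts to be tested, and none was called. Rlbp1, which carries 11-cis retinoids, was at 1386, 2034 and 2084 CPM in OIR and 1476, 3532 and 1493 CPM in Ctrl. The values overlapped between groups. In Müller-marker cells Rlbp1 was at 2406 to 3992 CPM, and its ratio of RPE cells to Müller-marker cells was 0.61 (median over libraries). Rlbp1, 1 of the 25 genes that served to check the label, thus does not set RPE cells apart from Müller-marker cells.

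**Figure D2:**
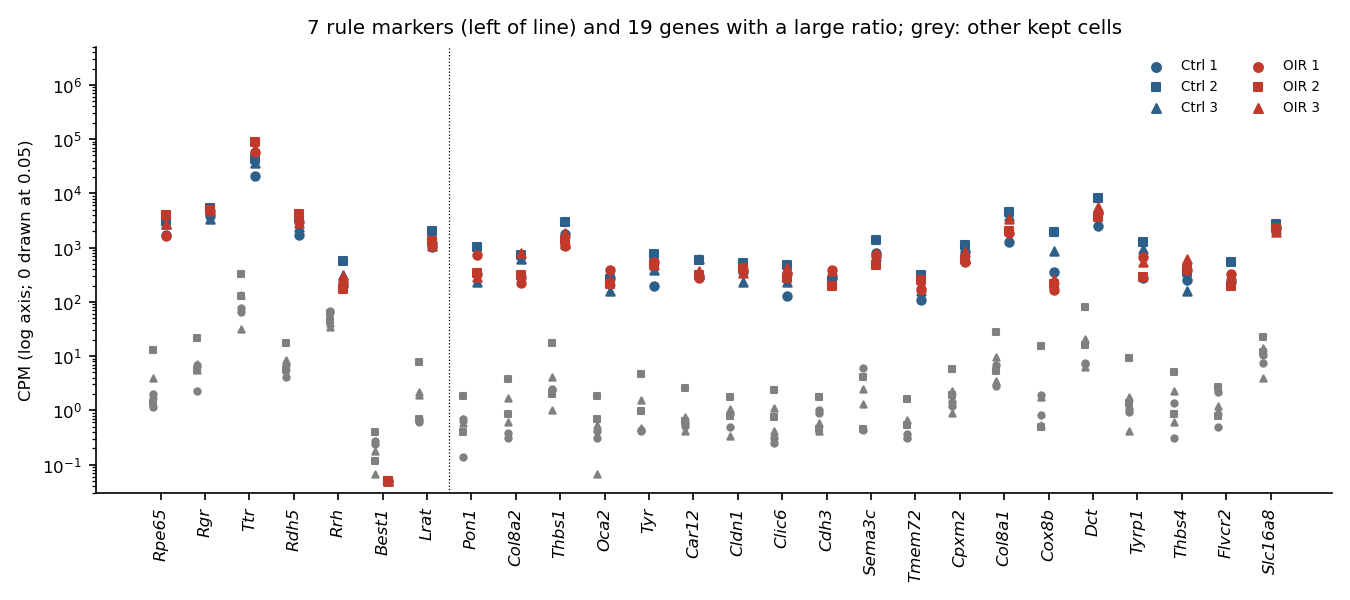
Level in CPM (log axis) of the 7 rule markers, left of the dotted line, and of 19 of the 20 genes with the largest ratio of RPE cells to other kept cells, each point 1 library (colour, RPE cells; grey, other kept cells of the same library). Best1 is at 0 in all RPE sums, Rrh is the marker with the smallest gap, and Cox8b has the widest spread of the 19 on the log axis, from 166 to 1958 CPM.

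The genes that stood highest in RPE cells against the rest of the suspension, outside the rule, were ranked by the median ratio over libraries among genes with at least 100 CPM in every library's RPE cells, counting the other cells at no less than 3 UMIs. The ranking follows from the contrast that chose the cells and is a description. Pon1, a secreted lactonase, led with a ratio of 726 and levels of 236 to 1040 CPM. The matrix genes Col8a2 and Col8a1, 2 chains of type VIII collagen, had ratios of 601 and 360, and the thrombospondins Thbs1 and Thbs4 had 568 and 263. The transport genes Car12 (carbonic anhydrase), Slc16a8 (lactate carrier) and Flvcr2 (a choline and haem transporter family member) had 488, 221 and 244. Among genes of cell contacts Cldn1 (claudin) had 475 and Cdh3 (P-cadherin) 443. Clic6, Sema3c (a semaphorin), Tmem72 and Cpxm2 had 449, 441, 404 and 377, and Cox8b had 314.

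Melanin genes filled 4 of those 20 places: Oca2 (ratio 550), Tyr (494), Dct (310) and Tyrp1 (284). Tyr encodes tyrosinase, the first enzyme of melanin synthesis, Tyrp1 and Dct encode the enzymes after it, and Oca2 a melanosomal membrane protein. The upstream promoter sequences of Tyr, Tyrp1 and Dct are shown because these 3 genes share the hexamer CATGTG, the core of the M-box bound by the RPE and melanocyte factor Mitf, and that of Rpe65 because it holds 2 of the 3 motifs searched. Each is the 250 bases before the RefSeq start on GRCm38.p6, 5′ to 3′ on the gene's own strand, and capitals mark CATGTG or its reverse complement CACATG, the E-box CACGTG, which is its own reverse complement, and the hexamer TAATCC (a core of Otx2 and Crx sites) or its reverse complement GGATTA.
Tyr, chr7:87493513-87493762, minus strand: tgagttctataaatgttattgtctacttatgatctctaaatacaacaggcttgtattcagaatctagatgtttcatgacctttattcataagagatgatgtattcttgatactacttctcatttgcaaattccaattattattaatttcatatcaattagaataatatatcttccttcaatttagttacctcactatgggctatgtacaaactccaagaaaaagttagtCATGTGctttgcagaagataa
Tyrp1, chr4:80833963-80834212, plus strand: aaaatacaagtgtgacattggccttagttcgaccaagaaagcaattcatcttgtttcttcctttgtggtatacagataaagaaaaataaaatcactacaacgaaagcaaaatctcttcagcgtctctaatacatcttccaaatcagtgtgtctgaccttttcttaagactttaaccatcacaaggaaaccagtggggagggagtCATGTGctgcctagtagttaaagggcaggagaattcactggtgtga
Dct, chr14:118052247-118052496, minus strand: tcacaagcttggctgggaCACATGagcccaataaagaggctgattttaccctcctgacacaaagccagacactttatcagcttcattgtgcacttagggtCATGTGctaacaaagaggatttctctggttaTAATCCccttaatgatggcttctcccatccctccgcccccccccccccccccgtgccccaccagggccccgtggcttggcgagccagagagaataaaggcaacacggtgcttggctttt
Rpe65, chr3:159598931-159599180, plus strand: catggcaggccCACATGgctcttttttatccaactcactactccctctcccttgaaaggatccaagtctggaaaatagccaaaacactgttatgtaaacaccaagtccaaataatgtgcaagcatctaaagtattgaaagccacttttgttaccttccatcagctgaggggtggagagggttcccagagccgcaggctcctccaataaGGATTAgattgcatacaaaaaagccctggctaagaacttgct
Of the 26 genes made up of the 20 and the rule markers other than Ttr, 22 had a promoter in the table. CATGTG or CACATG stood in 5 of the 22 (Tyr, Tyrp1, Dct, Oca2 and Rpe65) and in 12.2% of all 27025 promoters. TAATCC or GGATTA stood in 5 of the 22 (Rpe65, Rgr, Dct, Pon1 and Best1) and in 6.38% of all, and CACGTG in 1 (Flvcr2) and in 6.05% of all. The motifs were chosen with the gene levels known, and a match of letters is not a site of binding. Mitf itself had 15 UMIs in 14 of the RPE cells, and Otx2 had 149 UMIs in 72.

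The melanin genes overlapped between OIR and Ctrl. Dct was at 4323, 3646 and 5700 CPM in OIR and 2538, 8215 and 5185 CPM in Ctrl. Pmel, which forms the fibrils of the melanosome, was at 2550, 496 and 1134 CPM against 720, 1199 and 4085 CPM. Tyr was at 554, 508 and 475 CPM against 198, 768 and 393 CPM, and Tyrp1 at 665, 285 and 552 CPM against 270, 1265 and 943 CPM. Of the 16 listed genes all had a UMI, 7 were tested and none was called. Their median log2 fold change was -0.04, beside -0.05 over all genes tested. It ranged from -0.61 (mitochondrial limit of 10%) to 0.71 (sex as a term in the fit) over the alternatives, and when 1 library was left out from -0.43 (without Ctrl replicate 1) to 0.24 (without Ctrl replicate 2). By their Xist and Y-linked RNA, Ctrl replicates 2 and 3 came from females and the other 4 samples from males, so that sex is partly confounded with group. With sex as a term the 3 OIR libraries are therefore set against Ctrl replicate 1 alone, the control with the lowest melanin sum and the most rod RNA. Of the 25 RPE genes outside the rule 17 were tested and none was called, 6 fitted above and 11 below 0. Their median of -0.29 turned to 0.24 without Ctrl replicate 2 and to 0.65 against Ctrl replicate 1 alone (sex as a term).

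For the whole transcriptome, the RPE UMIs were summed per library and OIR was compared with Ctrl in edgeR. 934 genes had enough counts, 6 of them rule genes, and of the other 928 none was called in either direction at an adjusted p under 0.05 with a log2 fold change of at least 0.25 (0% called). At an unadjusted p under 0.05 there were 44 genes (4.74%), 18 higher (1.94%) and 26 lower (2.8%) in OIR. DESeq2 also called 0, with 27 at an unadjusted p under 0.05. On simulated counts of these libraries, with 200 genes changed at once, the test recovered 84% of 4-fold changes and 1% of 2-fold changes. Changes of 2-fold could thus hardly be detected at this depth. The limit on the adjusted p is easier to pass when many genes change. The 84% therefore does not hold for a few changed genes, and the 0 calls do not exclude 4-fold changes. The groups did not overlap in 71 genes with OIR higher (7.65%) and 18 with OIR lower (1.94%). The pooled mice are the replicates, and the p-values measure the spread between these pools.

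The gene with the lowest p was Cox8b, a subunit isoform of cytochrome c oxidase known from heart and muscle (GRCm38 chr7:140898945-140900446, minus strand). It had 3, 17 and 17 UMIs in OIR and 20, 209 and 11 UMIs in Ctrl, or 166, 211 and 260 CPM against 360, 1958 and 864 CPM. All OIR libraries were below all Ctrl libraries, and Ctrl replicate 2 alone held 209 of the UMIs. The log2 fold change was -2.39 (SE 0.53, adjusted p = 0.191 in edgeR's quasi-likelihood test). It was called without Ctrl replicate 1 (adjusted p = 0.000587), with a mitochondrial limit of 10% (0.00025), without RPE cells rich in rod RNA (0.0314) and with replicates 2 and 3 alone (0.0104), the last 2 being alternatives added after the values were seen. It was not called in the other settings, where its adjusted p ranged from 0.0674 to 0.999. Without Ctrl replicate 2 its log2 fold change was -1.25 (adjusted p = 0.219). The log2 fold change of Cox8b was -0.83 against Ctrl replicate 1 alone (sex as a term), with an adjusted p of 0.605 in edgeR. Cox8a, the widely expressed isoform, was at 831, 2654 and 2513 CPM in OIR and 1332, 2192 and 1414 CPM in Ctrl, and overlapped.

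The next genes by p were Lrp8, Tspo, Calml4 and Eif4a2, each with an adjusted p of 0.566 in the same edgeR test. Tspo, a cholesterol-binding protein of the outer mitochondrial membrane, was at 222, 632 and 383 CPM in OIR and 126, 159 and 78.6 CPM in Ctrl. Calml4, a calmodulin-like protein, was at 277, 1203 and 414 CPM against 144, 234 and 0 CPM. In both genes the OIR libraries lay above all Ctrl libraries, with log2 fold changes of 1.59 (SE 0.48) and 1.91 (SE 0.58). The value of Calml4 was 1.01 without OIR replicate 2, and 2.53 without Ctrl replicate 2, where it was called (adjusted p = 0.0456 in edgeR). Lrp8, a receptor of the LDL receptor family, was at 0, 99.2 and 91.9 CPM in OIR and 180, 403 and 236 CPM in Ctrl, and Eif4a2, a translation initiation factor, at 55.4, 62.0 and 76.6 CPM against 234, 234 and 236 CPM. Both were lower in every OIR library. In Ctrl replicate 3, where 3 UMIs are worth 236 CPM, Tspo, Calml4, Lrp8 and Eif4a2 each had 3 UMIs or fewer. In OIR replicate 1, where 3 UMIs are worth 166 CPM, Lrp8 and Eif4a2 did too. Without the limit on the 3 excluded genes, the log2 fold change of Tspo was 0.76, that of Lrp8 went from -1.90 to -1.11 and that of Eif4a2 from -1.87 to -0.22. These genes, like Cox8b, are named for their p, after the values were seen.

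Malat1, a nuclear long noncoding RNA, was at 8702, 3274 and 3968 CPM in OIR and 14975, 9873 and 12256 CPM in Ctrl, without overlap (log2 fold change -1.29, SE 0.49, adjusted p = 0.818 in edgeR). The other kept cells held 49758 to 103062 CPM, so that RPE cells were low in Malat1 in all 6 libraries. With a mitochondrial limit of 10%, Malat1 and Enpp2 were called lower in OIR beside Cox8b (adjusted p = 0.00025 and 0.0267). The log2 fold change of Malat1 was -0.42 (adjusted p = 0.856 in edgeR) without RPE cells with over 5% rod UMIs and -0.16 (adjusted p = 0.992) without the limit on the 3 excluded genes.

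**Figure D3:**
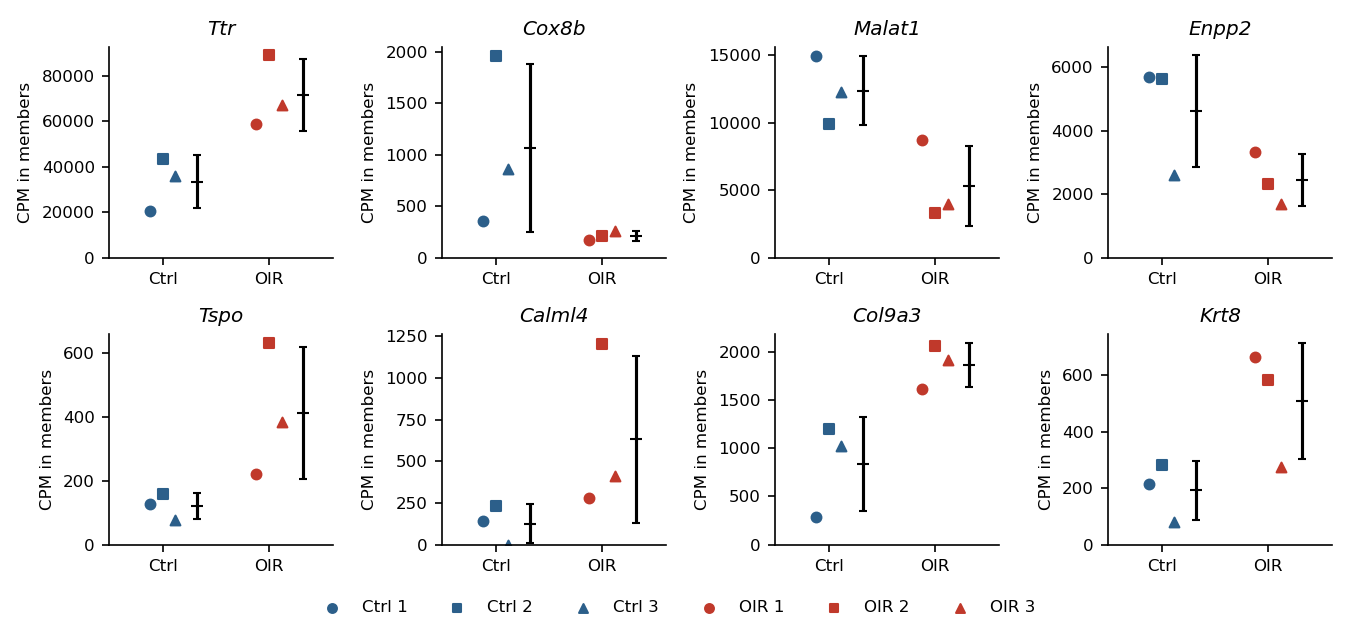
Level in RPE cells in CPM of Ttr, a rule gene, and of 7 genes named in the text, by group (circles, squares and triangles are replicates 1, 2 and 3; bars to the right of the points, mean ± SD of 3 libraries). Cox8b and Malat1 lie lower and Ttr, Tspo, Calml4 and Col9a3 higher in all 3 OIR libraries, while Enpp2 and Krt8 overlap. No gene tested passed an adjusted p of 0.05.

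Among genes of phagocytosis and the lysosome, those of the lysosome were the most abundant. Psap, the precursor of lysosomal saposins, was at 3880, 3435 and 3754 CPM in OIR and 3366, 6576 and 6050 CPM in Ctrl. Ctsd, the protease cathepsin D, was at 4988, 3249 and 3233 CPM against 1980, 3522 and 3221 CPM. Neither gene separated the groups. Ctsb and Ctsl, 2 further cathepsins, had means of 1102 and 830 CPM. Of the 23 listed genes 22 had a UMI, 11 were tested and none was called, and their median log2 fold change stood at 0.04, on either side of 0 across the alternatives. Mertk, the receptor of outer segment uptake, had 1 to 15 UMIs per library and was too low to be tested.

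Among transport genes, Trf (transferrin, the iron carrier) was at 8148, 11247 and 8596 CPM in OIR and 8459, 11513 and 13435 CPM in Ctrl. Bsg (basigin, the partner of lactate carriers) was at 4988, 7167 and 5960 CPM against 3078, 7054 and 4950 CPM. Slc16a8 varied least of the 20 genes ranked above (by highest over lowest library), at 2217, 2269 and 1946 CPM against 2358, 2773 and 2200 CPM. The groups overlapped in each. Atp1b1, a subunit of the sodium pump, had a mean of 1494 CPM. Of 27 listed genes 24 had a UMI and 17 were tested, and none was called. Their median log2 fold change was -0.46, with 12 of 17 below 0, and it was -0.10 without Ctrl replicate 2 and 0.14 against Ctrl replicate 1 alone (sex as a term).

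The summed level of the junction and cytoskeleton genes did not overlap between the groups, at 3991, 5158 and 3892 CPM in OIR and 2556, 3700 and 3221 CPM in Ctrl. That separation rests on Krt18, the most abundant gene of the list. Krt18 made up 1829 of the 3991 CPM in OIR replicate 1 and 1396 of the 3700 CPM in Ctrl replicate 2. Without Krt18 the sums of the groups overlap. The sum of the visual cycle list did not overlap either, but it is mostly Ttr, and 6 of its 13 genes are rule genes. The separation of the visual cycle sum is therefore only a description. Of the 4 genes tested in the visual cycle list, 1 was fitted above 0 and 3 below. All 5 tested genes of the junction list had a fitted value above 0 (45.7% of all genes did), and none was called. Of these 5, 1 did not overlap with OIR higher (20% beside 7.65% of all). Cldn1, the claudin named above, is not in that list and had a log2 fold change of -0.18 (SE 0.43). Krt18, an epithelial keratin, was at 1829, 2393 and 1410 CPM against 1062, 1396 and 1179 CPM, without overlap, with a log2 fold change of 0.55 (SE 0.38). Its partner Krt8 was at 665, 583 and 276 CPM against 216, 281 and 78.6 CPM (log2 fold change 1.02, SE 0.48, adjusted p = 0.959 in edgeR). The lowest OIR value of Krt8 lay just below the highest Ctrl value, and its log2 fold change was 0.45 without the limit on the 3 excluded genes. Ezr (ezrin, of the apical microvilli) and Slc9a3r1 (its scaffold partner) had log2 fold changes of 0.27 and 0.66.

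Secreted and matrix genes made up a large share of the RPE RNA, between 50899 and 80298 CPM per library. Ptgds, which makes prostaglandin D2, was at 18180, 25458 and 19689 CPM in OIR and 17098, 28777 and 32134 CPM in Ctrl. Cst3 (cystatin C, a protease inhibitor) was at 17792, 29822 and 22585 CPM against 14795, 20421 and 17049 CPM, and Apoe (apolipoprotein E) at 11418, 10875 and 6635 CPM against 5903, 8581 and 5814 CPM. All 3 overlapped. Enpp2 (autotaxin, which makes lysophosphatidic acid) was at 3326, 2306 and 1685 CPM against 5687, 5621 and 2593 CPM, overlapping in 1 library, with a log2 fold change of -1.05 (SE 0.45, adjusted p = 0.903 in edgeR). Of the 16 tested genes 11 were below 0 (504 of all 928 were), and 4 had an unadjusted p under 0.05, all lower in OIR (Enpp2, Sulf1, Dkk3 and Bmp4; 2.8% of all genes). Sulf1 turned to a log2 fold change of 0.27 against Ctrl replicate 1 alone (sex as a term). None was called, and the median of the 16 went from -0.41 to 0.06 without Ctrl replicate 2 and to 0.33 against Ctrl replicate 1 alone (sex as a term).

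2 secreted factors of vessel growth were looked up for the disease model. Vegfa, the growth factor of vessels, had 2, 14 and 14 UMIs in OIR and 8, 32 and 4 in Ctrl, or 111, 174 and 215 CPM against 144, 300 and 314 CPM. The values overlapped (log2 fold change -0.54, SE 0.48, adjusted p = 0.959 in edgeR). Serpinf1, which encodes the vessel inhibitor PEDF, had 1 UMI in each group. The hypoxia and glycolysis list of 26 genes had 11 tested and none called, a median of -0.15 (0.04 without Ctrl replicate 1, 0.07 with a mitochondrial limit of 10%, 0.11 without rod-rich RPE cells and 0.35 without the limit on the 3 excluded genes), and overlapping sums of 10242 to 10974 CPM in OIR and 9115 to 11314 CPM in Ctrl. Gapdh and Aldoa, enzymes of glycolysis, Mif and the glucose carrier Slc2a1 were its most abundant members, and each overlapped.

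Nuclear genes of oxidative phosphorylation were fitted above 0 in 47 of 67 tested (45.7% over all genes). Their median log2 fold change stood at 0.18, and 8 did not overlap with OIR higher (11.9% of the 67 beside 7.65% of all). None was called, and Cox8b was the 1 gene with an unadjusted p under 0.05. The summed level was 34752, 46513 and 44098 CPM in OIR and 37022, 40084 and 34491 CPM in Ctrl, and the groups overlapped. Their median became 0.04 when OIR replicate 2 was left out, and -0.06 with no limit on the 3 excluded genes. The mitochondrial genome list followed the libraries and not the groups, with 124931 and 102500 CPM in OIR and Ctrl replicate 1 against 39966 to 72517 CPM in the other 4. Ribosomal protein genes had 78 tested, none called and a median of -0.04, which was 0.25 without Ctrl replicate 1.

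Antioxidant, iron and metallothionein genes had 14 tested and none called, with a median of 0.22 (-0.10 without the limit on the 3 excluded genes), and 3 did not overlap with OIR higher (21.4% of the 14 beside 7.65% of all). The median was -0.04 without OIR replicate 2. Mt1 (metallothionein) was at 6707, 12016 and 7324 CPM in OIR and 5094, 10838 and 7935 CPM in Ctrl. Gpx4, which reduces lipid peroxides, was at 3381, 5692 and 4934 CPM against 3024, 4777 and 3300 CPM. Both overlapped. Nqo1, a quinone reductase, had the lowest p of the list, with 277, 384 and 245 CPM against 162, 112 and 0 CPM (log2 fold change 1.28, SE 0.52, adjusted p = 0.818 in edgeR). The value of Nqo1 was 0.30 without the limit on the 3 excluded genes and 0.80 against Ctrl replicate 1 alone (sex as a term). The ferritin chains Fth1 and Ftl1 overlapped between the groups.

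Few genes of the immune and stress lists had enough counts for a test. Of the 20 genes of complement and inflammation, 13 had no UMI in RPE cells, and the list summed to 943 to 2829 CPM against 125 to 291 CPM in the other kept cells. The interferon and MHC class I list summed to 324 to 1607 CPM, above the other kept cells in every library except Ctrl replicate 1. B2m, the light chain of MHC class I, was at 499, 223 and 169 CPM against 144, 365 and 393 CPM, and was the 1 tested gene of 18 in its list. None of the 18 genes of dedifferentiation and mesenchyme reached the limit for a test, and Vim, the mesenchymal filament, was at 0 to 199 CPM. The heat shock genes Hsp90aa1, Hspa8 and Hspa5 were tested and not called. Of 23 lipid genes 4 were tested, among them Apoe, Scd2 and Acadl, and none was called.

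**Figure D4:**
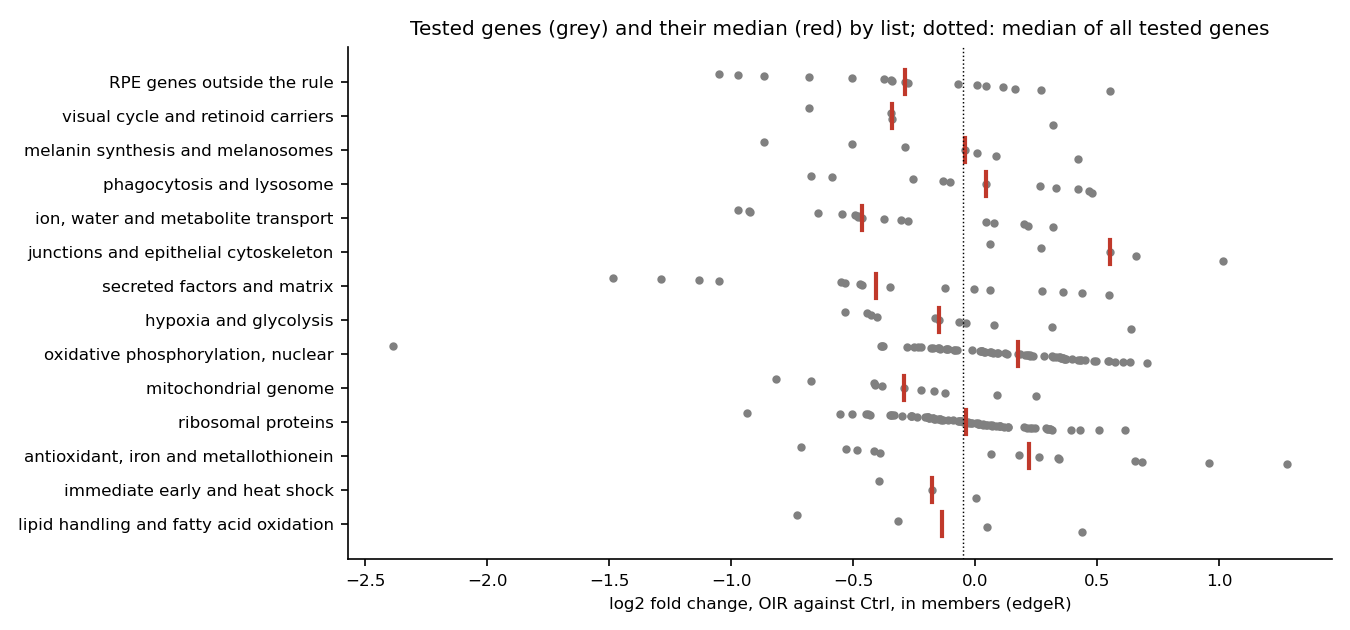
Log2 fold change of OIR against Ctrl in RPE cells for each tested gene (grey points) of 14 functional lists, with the list's median (red) and the median of all tested genes (dotted, -0.05). The 5 tested genes of the junction list lie above 0 (the claudin Cldn1, at -0.18, is not in that list). The point far left in oxidative phosphorylation is Cox8b at -2.39.

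RNA of other retinal cells was present in the RPE cells and differed between libraries. The 15 rod genes took 1.92%, 0.98% and 2.11% of RPE UMIs in OIR and 4.79%, 0.97% and 3.41% in Ctrl, with means of 1.67% ± 0.604 and 3.06% ± 1.93 (SD, n = 3 each; exact permutation test, two-sided, p = 0.4). In the other kept cells the rod list summed to 27321 to 66290 CPM. In Ctrl replicate 1 the RPE cells lay above them, at 47893 against 27321 CPM, and in every other library below them. Ctrl replicate 2, with the most RPE cells, had the least rod RNA, and Ctrl replicate 1 had the most. 18 RPE cells had over 5% of UMIs from the rod list, 8 of them in Ctrl replicate 1. 14 of the 15 rod genes were fitted below 0 in OIR, none was called, and without Ctrl replicate 2 the 10 genes called lower included the rod genes Gnat1, Gngt1, Pde6b, Cnga1 and Rcvrn. Whether the rod RNA was free or came from material in or on the RPE cells was not tested.

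Lists of other cell types differed in level and in the libraries that held them. Bipolar genes reached 1944 CPM in Ctrl replicate 1 and 74.4 to 184 CPM elsewhere, led by Gng13. Lens genes reached 1414 CPM in OIR replicate 2, where the other kept cells had 2525 CPM, and 0 to 46.0 CPM elsewhere, led by Cryba1. Cone genes ranged from 62.0 to 1108 CPM, with Pde6h the highest. The Müller glia list was higher in RPE cells than in the rest, at 4086 to 10343 CPM, except in Ctrl replicate 1 (4086 against 4267 CPM), but rested on Clu (clusterin), at 3060 to 8792 CPM. Amacrine genes rested on the glycine transporter Slc6a9, at 111 to 384 CPM. Microglial genes (Csf1r), mural genes (Acta2), astrocyte genes (Slc1a2), genes of red blood cells (Hbb-bs), fibroblasts (Col3a1) and ciliary epithelium (Col9a1) stayed at or below 337 CPM. The 5 leukocyte genes had 0 UMIs in all libraries, S100a8 among them. Melanocyte genes summed to 0 to 309 CPM, led by Mlana, which the RPE also expresses.

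**Figure D5:**
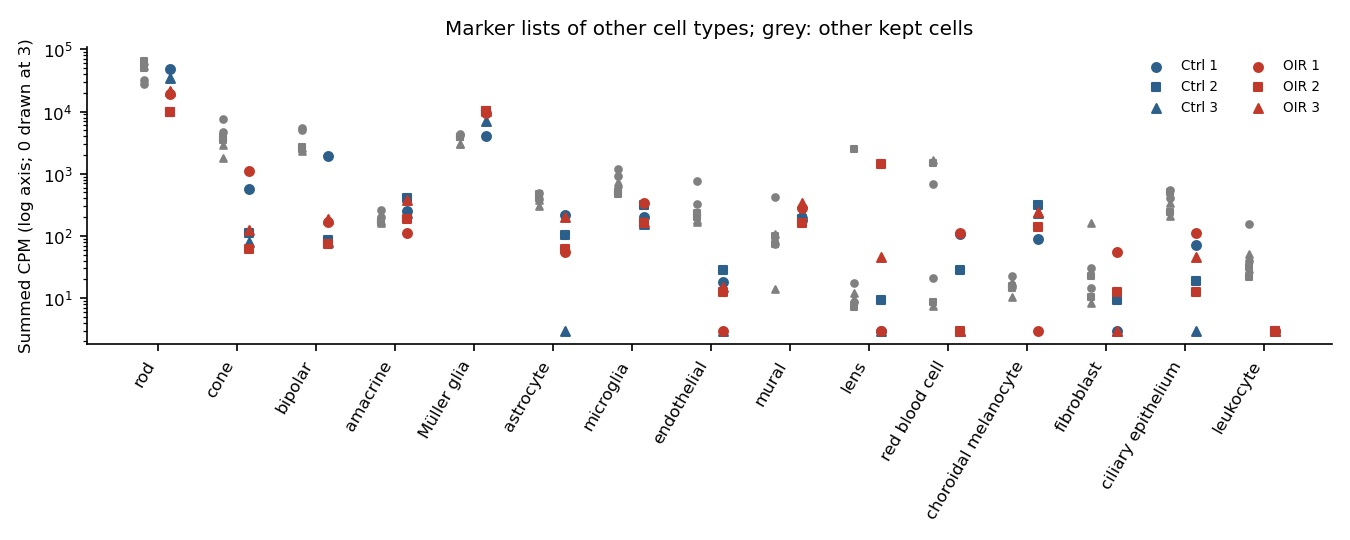
Summed CPM (log axis) of marker lists of other cell types in RPE cells (colour) and in other kept cells (grey), 1 point per library. The rod list is highest in Ctrl replicate 1, and in OIR and Ctrl replicate 2 the Müller glia list, which rests on Clu, lies above it. Lens RNA is confined to OIR replicate 2 above 46.0 CPM, and leukocyte genes are at 0.

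Whether OIR acted differently on RPE cells than on the cells around them was tested as an interaction within libraries. Against all other kept cells 0 of 13631 genes were called, with 266 (1.95%) at an unadjusted p under 0.05 in edgeR. Restricted to the 928 genes with enough counts in RPE cells, a choice made after seeing the data, 0 were called and 36 (3.88%) had an unadjusted p under 0.05. Against the 3262 Müller-marker cells 0 of 9893 genes were called and 292 (2.95%) had an unadjusted p under 0.05, and among the 928 genes 0 were called and 34 (3.66%) had one. On simulated counts with 200 genes changed at once, the test over all genes recovered 0% of 4-fold and 22.5% of 16-fold differences in effect. The test limited to the 934 genes counted in RPE cells recovered 73% of 4-fold and 0% of 2-fold. The 73% does not hold for a few changed genes either. The counts of 0 calls thus do not show that the effects were alike. DESeq2 was not run for these tests. On their own, with the same test, the Müller-marker cells had 114 genes called higher (0.953%) and 99 lower (0.828%) in OIR, 1.78% of 11960 together, and 14.6% had an unadjusted p under 0.05. The larger number of cells there means that the counts of calls cannot be set against each other as a difference in response.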

How the data were processed

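Retinas of 2 mice per sample were dissociated and loaded on the 10x Genomics Chromium 3′ v3 chip, and the authors deposited a raw UMI count matrix per sample (47631 barcodes in all, 31053 genes, build mm10 per the labels, matrix header version 3.1.0). The counts are molecules, so a level in CPM is UMIs per 1000000 UMIs of the summed RPE cells and is not divided by gene length. Barcodes were filtered and RPE cells chosen as stated at the start, and UMIs were summed per sample, with 6 samples and 3 per group. The members and gene lists were chosen with earlier results of these data known.

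edgeR 4.0.16 (quasi-likelihood test, TMM, filterByExpr, Benjamini-Hochberg over all genes) was the main test, with calls at an adjusted p of 0.05 and a log2 fold change of 0.25. DESeq2 1.42.0 was an alternative. Single values were compared by exact permutation of the 6 samples. The interaction tests held the sample as a block. Doublets were scored with Scrublet (scanpy 1.11.5), the top 0.8% per 1000 barcodes of each library counted as high, which marked 5 RPE cells, and were left out only as an alternative. The tests were tried on simulated counts with known changes.

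Genes were named by rule: called genes, the 4 most abundant genes of each functional list and those called in it, the 20 genes with the largest ratio to other kept cells, the 10 rule genes, and the most abundant gene of each list of another cell type. Genes named for their p or for a call or turned sign under an alternative, and Stra6, Cldn19, Vegfa, Serpinf1, Mertk, Mitf, Dapl1 and Otx2, were chosen after their values were seen. The results of some genes that the rule names are not reported here. Intervals cover counting error only. Promoters are RefSeq sequences on GRCm38.p6, and gene positions GENCODE M21 on the same build.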

Additional observations from a re-analysis of the deposited data

Results flagged for a closer look

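Signal of RPE genes was also present in barcodes outside the comparisons above. There were 149 barcodes with 3 or more RPE markers and a UMI of Slc1a3, Trpm1 or Arr3, more than the 145 RPE cells themselves. Their median depth per library was 5188 to 11016 UMIs and the rule markers took 0.456% to 2.69% of their UMIs. They held a median of 7 to 15 of the 25 further RPE genes, with the highest value in Ctrl replicate 2. With no limit on the 3 excluded genes, 1 gene, Nnat, was called higher in OIR (log2 fold change 2.34, SE 0.29, adjusted p = 0.0413 in edgeR).

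Best1 had 33 UMIs in kept cells that were not RPE cells, at 0.0683 to 0.396 CPM per library, and 0 in RPE cells. The RPE sums are too shallow to detect that level, so the counts do not show a difference.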

How the results depend on the processing

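The counts of called genes, 0 higher and 0 lower, stayed at 0 under DESeq2, library totals, the replicate block, 4 or more markers, members chosen without Ttr and Rgr, no upper gene limit and removal of high Scrublet scores. Leaving out 1 replicate gave 0 to 2 higher and 0 to 10 lower: without Ctrl replicate 2, 2 higher (Calml4, Col9a3) and 10 lower, and without Ctrl replicate 1, 1 lower (Cox8b). With no filter on low counts 2 were higher (Cryge and Crygb, lens genes), with no limit on the excluded genes 1 higher, with a sex term, which sets OIR against Ctrl replicate 1 alone, 1 lower (the rod gene Guca1b), with a mitochondrial limit of 10% 3 lower, without RPE cells with over 5% rod UMIs 1 lower and with replicates 2 and 3 alone 1 lower. The interaction with other kept cells gave 0 to 5 genes more positive in RPE cells when 1 replicate was left out, the 5 without Ctrl replicate 2.

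The share difference (OIR minus Ctrl) ranged from -0.232 to 0.114 percentage points when 1 replicate was left out, and it was above 0 without Ctrl replicate 2. The rod share difference was -1.39 percentage points and ranged from -2.43 to -0.522 when 1 replicate was left out, and was 0.339 without RPE cells over 5% rod UMIs, where Gnat1 (0.079), Rcvrn (0.39), Pde6g (0.71) and Cnga1 (0.88) also turned to a positive log2 fold change; there the removal of those cells by their rod RNA fixes the rod values. Guca1a was 0.066 with replicates 2 and 3 alone and Sulf1 0.27 with a sex term; the cause was not tested. The replicate block called 0 genes (62 against 44 at an unadjusted p under 0.05) and moved Cox8b and Malat1 to an adjusted p of 0.0674 in edgeR; the medians of melanin (0.02), phagocytosis (-0.01) and ribosomal genes (0.07), all near 0, changed sign. In their deviations from the group means, same-numbered samples correlated by 0.125, 0.242 and 0.0715 in the RPE sums and by 0.670, 0.299 and 0.507 in the sums of all kept cells. Each sample correlated best with its own number in the RPE sums, but in all kept cells Ctrl replicate 2 did so with OIR replicate 3 (0.398). The labels state no pairing, and the block changed no call.

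Depth is 1 limit: OIR replicate 1 and Ctrl replicate 3 hold 12 and 9 RPE cells. Leaving out Ctrl replicate 2 moved more results than leaving out either. Since both female samples are controls, the sex term leaves 1 male control, Ctrl replicate 1, and its values do not separate sex from that library.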
